A study of Homo sapiens with 6 samples.

Results

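The cytosolic ribosomal protein genes were followed across 6 Illumina expression arrays of U2OS, a human osteosarcoma line. They were taken by symbol: RPL or RPS plus digits with an optional A, B, X or Y, together with RPLP0, RPLP1, RPLP2 and RPSA, without the RPS6K kinases and without symbols ending in L or P. The rule found 130 of the 47231 probes on the array, which belong to 79 genes, 46 of the large ribosomal subunit and 33 of the small. A total of 124 of these probes and 77 of the genes (45 large, 32 small) lay above the estimated background, among 20657 probes and 15300 genes with a symbol that did so on the whole array. The genes below it were RPL10 and the Y-linked RPS4Y2. A probe that stays dim says nothing of the transcript, and the other member on that chromosome, RPS4Y1, is counted but not described.

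In 3 samples the U2OS cells carried an shRNA against TUSC4 as a stable knockdown, and in 3 they carried a control shRNA. The labels call the control cells parental. The sources used here do not say whether either line was a clone or a pool. They also do not name separate cultures within a group, so the p-values reflect sample-to-sample spread that may be purely technical. In such bulk samples fewer cells of a kind and less RNA per cell cannot be told apart. Of 8 osteoblast lineage markers 5 were above background, as were EPCAM, KRT8 and KRT18 of 4 epithelial markers and none of the 4 blood or the 2 endothelial ones. TUSC4 itself, at 366, 345 and 481 signal units in the knockdown samples against 1105, 943 and 977 in the control samples, had a log2 fold change of -1.18 ± 0.10 (SE, n = 3 each, limma adjusted p = 8.77e-07).

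Ribosomal proteins assemble on ribosomal RNA in the nucleolus into a large and a small subunit. The large subunit forms peptide bonds and the small subunit reads the messenger RNA. Cells make the proteins in near-equal amounts, and unassembled ones are degraded, apart from RPL5 and RPL11, which as a particle with 5S RNA can bind the ubiquitin ligase MDM2. The messenger RNAs begin with a terminal oligopyrimidine (TOP) tract, a C followed by a run of C and T, through which mTORC1 controls their translation with the RNA-binding protein LARP1. TUSC4 (NPRL2) is a subunit of GATOR1, which restrains mTORC1 when amino acids are scarce. Control of this kind acts on translation, whereas the arrays measured transcript levels alone.

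The start regions of the 8 genes that passed the test, with that of RPS6, the protein phosphorylated by the S6 kinases downstream of mTORC1, are shown to let the TOP tract be seen beside the changes. Each runs 5′ to 3′ for 20 bases before and 20 bases after an annotated gene start (RefSeq, GRCh38.p14), and capitals mark a C followed by at least 4 pyrimidines that begins at the first transcribed base.
RPL34 (chr4:108620556-108620595, plus strand): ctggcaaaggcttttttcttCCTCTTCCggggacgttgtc
RPL22 (chr1:6199576-6199615, minus strand): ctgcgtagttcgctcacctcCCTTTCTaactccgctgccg
RPL13A (chr19:49487588-49487627, plus strand): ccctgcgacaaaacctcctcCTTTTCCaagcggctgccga
RPL35 (chr9:124861938-124861977, minus strand): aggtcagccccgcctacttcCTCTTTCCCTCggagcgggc
RPS21 (chr20:62387083-62387122, plus strand): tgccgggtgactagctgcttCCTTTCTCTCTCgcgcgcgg
RPS26 (chr12:56041898-56041937, plus strand): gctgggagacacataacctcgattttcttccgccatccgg
RPS23 (chr5:82278335-82278374, minus strand): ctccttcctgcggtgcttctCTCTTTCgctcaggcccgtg
RPS15 (chr19:1438376-1438415, plus strand): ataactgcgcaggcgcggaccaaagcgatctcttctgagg
RPS6 (chr9:19380217-19380256, minus strand): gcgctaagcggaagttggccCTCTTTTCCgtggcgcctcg

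Start regions were found for 62 of the 77 measured genes. Such a tract began at an annotated start in 46 of them (74.2%), against 5.96% of 15779 other protein-coding genes, and its length was 5 to 19 bases with a median of 8. It was present in 73.0% of the 37 large subunit genes and 76.0% of the 25 small subunit genes. All 5 genes that rose had it at an annotated start, as did 1 of the 3 that fell and 40 of the 54 that did not pass. RPL34 has a second annotated start, not shown, at which no tract began. With a tract allowed to begin up to 5 bases either side of the annotated start it was found in 53 of 62 members and in 27.8% of other genes, and still in 1 of the 3 genes that fell. In the windows shown, RPS26 and RPS15 have such a run beginning past that limit, just past it in RPS26 and further on in RPS15. The count among genes that fell therefore depends on the annotated start and on the limit chosen. Further motifs were searched on either strand over 250 bases before and 50 after the start. CCGGAAG, the core that ETS factors bind, stood in 21 of 62 members (33.9%) and 16.5% of other genes, and TATAAA in 5 members (8.06%) and 12.4% of other genes. A match is a run of letters and not a shown binding site.

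Most ribosomal protein transcripts did not pass the test for a difference between TUSC4 knockdown and control cells. With limma on log2 intensity after background correction and quantile normalization, 5 of 77 genes were higher and 3 lower in the knockdown at an adjusted p under 0.05, or 10.4% of the members, against 27% of all genes tested. Higher genes made up 6.49% of the members and 13.3% of all genes, and lower genes 3.90% and 13.7%. Changes were also small, with a median log2 fold change of 0.0061 against 0.0013 for all genes. The middle 50% of the members lay between -0.08 and 0.06, against -0.16 and 0.17 for all genes, and 63 of 77 (81.8%) were within 0.2 of 0, against 57.5% of all genes. At an unadjusted p under 0.05 there were 13 members, 16.9% of the 77, against 37.7% of all genes. For 68 of the 77 the 95% interval of the log2 fold change lay inside 0.5 either way. For 20 of the 77 members no knockdown value fell within the control range or the reverse, against 40.5% of all genes.

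**Figure D1:**
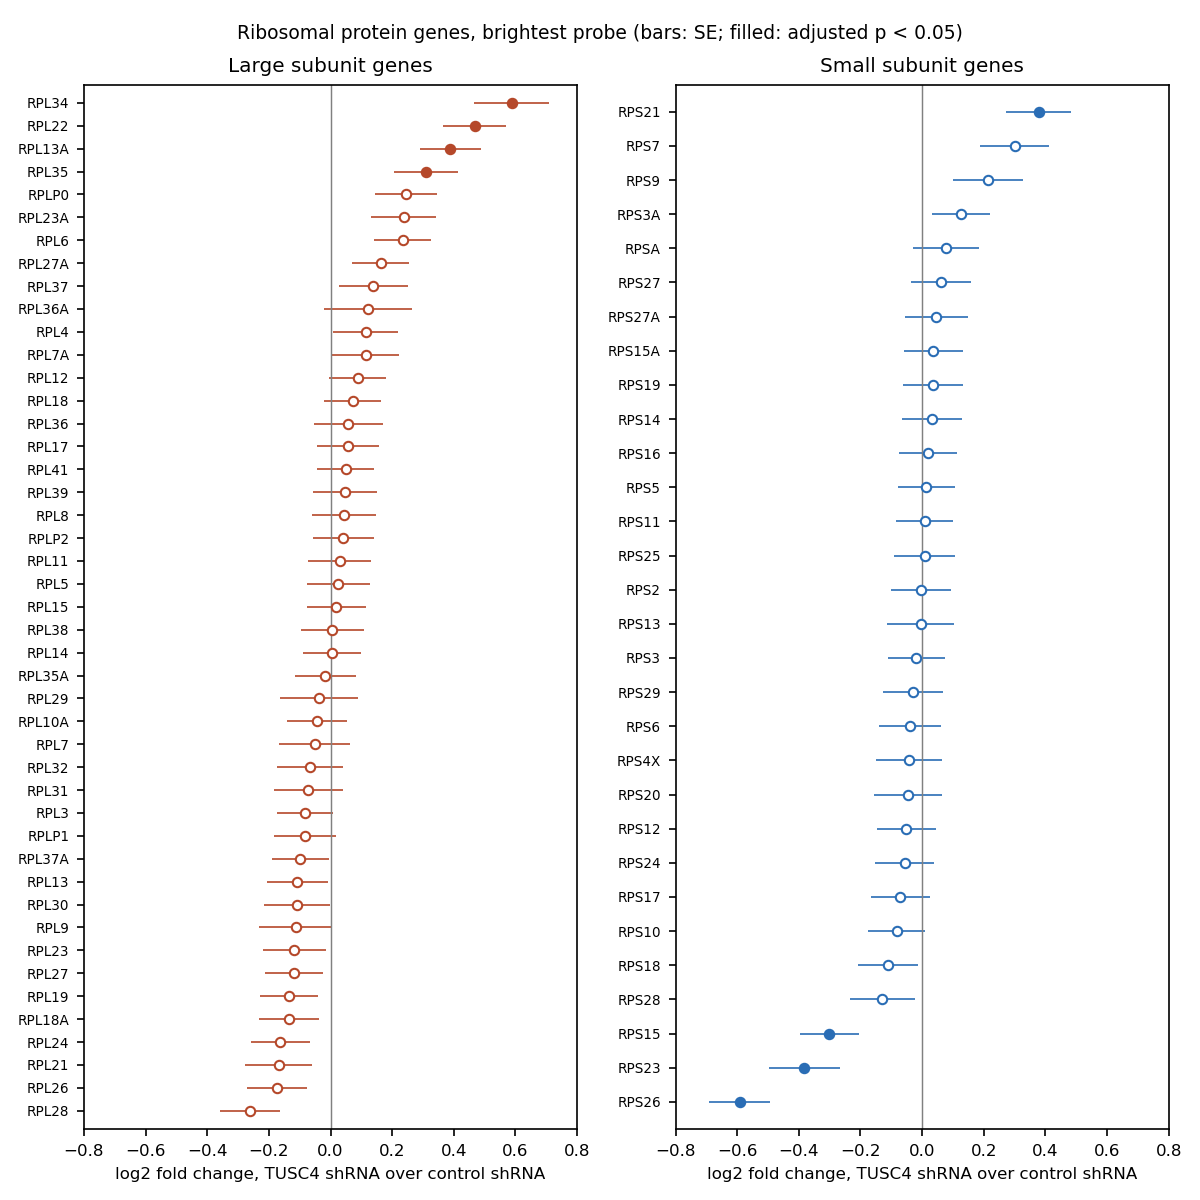
Log2 fold change (TUSC4 shRNA over control shRNA, brightest probe) of 75 ribosomal protein genes, large subunit left and small subunit right, with SE bars and filled points where the limma adjusted p was under 0.05. The genes that rose are RPL34, RPL22, RPL13A, RPL35 and RPS21, those that fell are RPS26, RPS23 and RPS15, and 63 of 77 measured genes lay within 0.2 of 0.

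Of the 45 large subunit genes 4 rose (8.89%, against 13.3% of all genes) and none fell (against 13.7% of all genes). RPL34, a component of the large subunit, had normalized log2 intensities of 10.99, 11.10 and 11.43 in the knockdown samples and 10.59, 10.74 and 10.44 in the control samples. All 3 knockdown samples were higher, and the log2 fold change was 0.59 ± 0.12 (SE, n = 3 each, adjusted p = 0.00191). Its second probe also rose, by 0.37 (adjusted p over all probes = 0.0277). RPL22, which is mutated in several tumour types, had 9.81, 10.02 and 9.73 in knockdown cells against 9.38, 9.45 and 9.33 in control cells. The groups were apart for RPL22 as well, with a log2 fold change of 0.47 ± 0.10 (adjusted p = 0.00303).

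RPL13A, which besides its place in the ribosome can silence inflammatory transcripts after interferon treatment, had 12.83, 12.98 and 12.74 in the knockdown samples and 12.43, 12.55 and 12.41 in the control samples. The groups did not overlap, and the log2 fold change was 0.39 ± 0.10 (adjusted p = 0.00851). RPL35, of the large subunit close to the peptide exit, had 13.63, 13.73 and 13.92 in knockdown cells against 13.48, 13.53 and 13.34 in control cells. The groups did not overlap, but the gap between them was narrower than the range within the knockdown samples. The same held for RPL34, RPL22 and RPL13A. For RPL35 the log2 fold change was 0.31 ± 0.10 (adjusted p = 0.0362). The separation of RPL34, RPL22 and RPL35 rests on the normalization, since their unnormalized signals overlapped between the groups, for RPL34 with 1831, 1890 and 3084 in the knockdown samples and 1930, 1822 and 1496 in the control samples. With median scaling RPL34 was at 0.39 (adjusted p = 0.0956), RPL22 at 0.23 (adjusted p = 0.156) and RPL35 at 0.32 (adjusted p = 0.0799), and RPL13A kept its call.

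**Figure D2:**
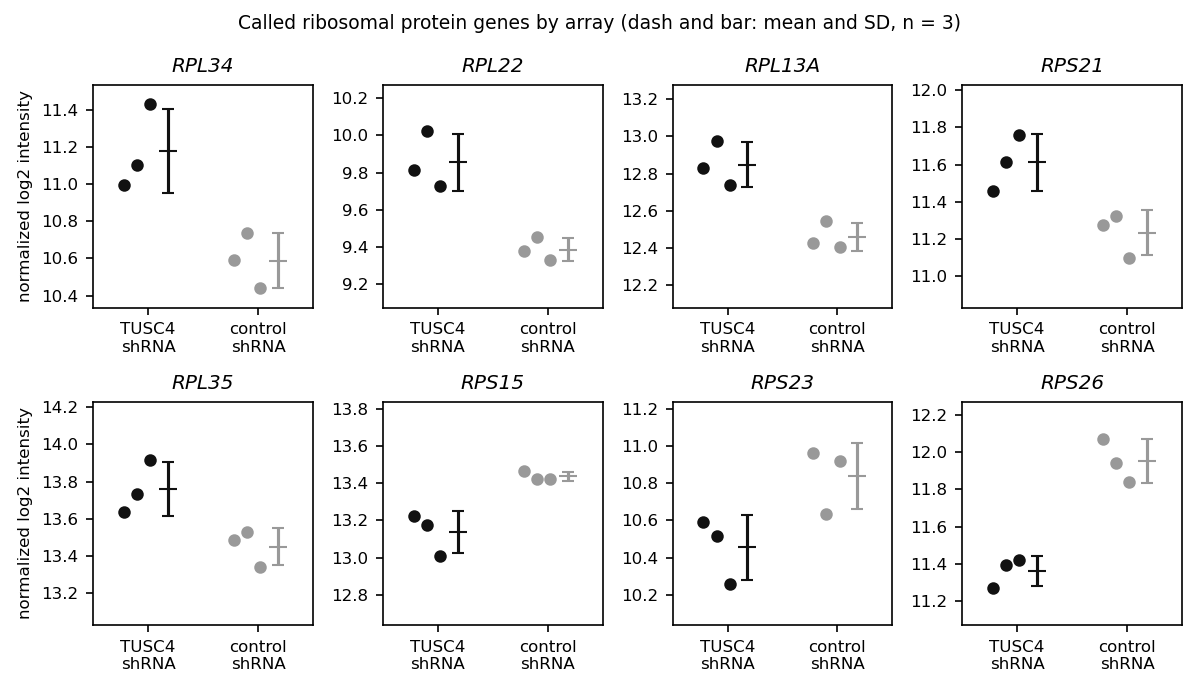
Normalized log2 intensity of the 8 ribosomal protein genes that passed the test, with a point for each array, TUSC4 shRNA (black) left of control shRNA (grey), and a dash and bar for the mean and SD (n = 3). Each panel spans the same height of 1.2 log2 units, and the groups do not overlap in any of the 8.

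Of the 32 small subunit genes 3 fell (9.38%, against 13.7% of all genes) and 1 rose (3.12%, against 13.3% of all genes). RPS26, which lies at the channel where messenger RNA leaves the small subunit and is mutated in some families with Diamond-Blackfan anaemia, had 11.27, 11.39 and 11.42 in knockdown cells and 12.07, 11.94 and 11.84 in control cells. Every knockdown sample was below every control sample. The log2 fold change was -0.59 ± 0.10 (adjusted p = 0.000418), a level of 0.664 times the control. The second probe of RPS26 was lower too (-0.50, adjusted p over all probes = 0.00263), with signals of 173, 186 and 219 in knockdown samples and 328, 284 and 267 in control samples. Unnormalized signals of the first probe were 2193, 2324 and 3063 in knockdown samples and 5012, 4055 and 3759 in control samples, so that the fall of RPS26 was seen before normalization too.

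RPS23, which sits near the decoding centre, had 10.59, 10.52 and 10.26 in the knockdown samples against 10.96, 10.63 and 10.92 in the control samples. Knockdown replicate 1 and control replicate 2 nearly met, and the log2 fold change was -0.38 ± 0.12 (adjusted p = 0.0223). RPS15, needed for late maturation of the small subunit, had 13.22, 13.18 and 13.01 in knockdown cells and 13.47, 13.42 and 13.43 in control cells. Its log2 fold change was -0.30 ± 0.10 (adjusted p = 0.0297), but its other probe gave 0.15 and did not pass (adjusted p over all probes = 0.328). RPS21, the small subunit gene that rose, had 11.46, 11.62 and 11.76 in knockdown cells against 11.28, 11.33 and 11.10 in control cells, with a log2 fold change of 0.38 ± 0.11 (adjusted p = 0.0151). For RPS15 and RPS21 too the gap between the groups was narrower than the range within the knockdown samples. The unnormalized signals of RPS21 overlapped, and with median scaling its value was 0.22 (adjusted p = 0.288).

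RPL5, RPL11, RPS6, RPS3, RPS19, RPS27A and RPL7A, chosen for description by name, were not called. RPL5 had 13.42, 13.16 and 13.26 in the knockdown samples and 13.35, 13.20 and 13.21 in the control samples. For RPL11 the values were 13.94, 14.12 and 13.91 in knockdown cells and 13.95, 13.85 and 14.08 in control cells. The groups overlapped for both MDM2-binding proteins, and the log2 fold change was 0.03 with a 95% interval of -0.19 to 0.24 for RPL5 and 0.03 with -0.19 to 0.25 for RPL11. RPS6 had 13.66, 13.60 and 13.77 in knockdown cells and 13.57, 13.79 and 13.80 in control cells, again overlapping, with a log2 fold change of -0.04 and an interval of -0.26 to 0.18. RPS3, which also takes part in base excision repair, had a log2 fold change of -0.02 ± 0.09. RPS19, the most often mutated gene of Diamond-Blackfan anaemia, was at 0.03 ± 0.10. RPS27A, made as a fusion with ubiquitin, was at 0.05 ± 0.10 and RPL7A, a large subunit protein, at 0.11 ± 0.11.

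Of the members chosen by name RPLP0, a stalk protein often used as a reference transcript, was the closest to the threshold. It had 14.25, 14.42 and 14.54 in knockdown cells against 14.13, 14.17 and 14.18 in control cells. The groups did not overlap, but the log2 fold change of 0.24 ± 0.10 missed the threshold (adjusted p = 0.0841). Its dimmer probe passed (0.37, adjusted p over all probes = 0.0106). Without TUSC4 shRNA replicate 1, without background correction or with the mean of its probes, RPLP0 was called higher. The largest negative values among large subunit genes were RPL28 at -0.26 ± 0.10 (adjusted p = 0.0572) and RPL26 at -0.17 ± 0.10 (adjusted p = 0.217), neither of which passed. RPL28 was called lower with median scaling, without normalization and when the probes of each gene were averaged. Its only kept probe was dim, with a mean of 174 signal units in knockdown samples and 227 in control samples.

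The 2 subunits were close to each other as sets. The median log2 fold change was 0.02 for 45 large subunit genes and -0.0039 for 32 small subunit genes, with middle 50% ranges of -0.10 to 0.11 and -0.06 to 0.04. Each array was also summarised by the median deviation of the members from their own mean over the 6 arrays. For the large subunit this was -0.05, -0.02 and 0.08 in the knockdown samples and -0.0033, 0.02 and -0.06 in the control samples. For the small subunit it was -0.04, -0.01 and 0.05 in the knockdown samples and 0.0058, -0.00066 and -0.01 in the control samples. Knockdown replicate 3 stood highest for both subunits, and the groups overlapped for both. Large minus small was -0.0074, -0.0039 and 0.03 in knockdown cells against -0.0091, 0.02 and -0.05 in control cells, a mean of 0.0067 ± 0.02 and -0.01 ± 0.03 (SD, n = 3 each), so any difference between the subunits was smaller than the spread between replicates. No test was run on these sets, because the members had been chosen with results of these data known.

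Signal level and normalization bear on these counts. Of the 77 members 49 had a mean signal over 10000 units, 25 of the large subunit and 24 of the small, and member probes made up 41 of the 200 brightest probes on the array (20.5%). Quantile normalization gives all arrays the same distribution, and its part in the counts for such bright genes was not tested. Among genes over 10000 units 4.08% of 49 members and 11.6% of 268 other genes were called, with middle 50% widths of the log2 fold change of 0.12 and 0.17. Between 5000 and 10000 units the shares were 8.33% of 12 members and 31.2% of 320 other genes. Between 1000 and 5000 units they were 44.4% of 9 members and 37.1% of 2110 other genes. Under 1000 units they were 14.3% of 7 members and 25.6% of 12525 other genes. Of the 8 called members 2, RPL35 and RPS15, lay over 10000 units. Median scaling moved the median of all genes to -0.12, and the median of the large subunit genes was then 0.10 above it and that of the small subunit genes 0.11 above it.

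**Figure D3:**
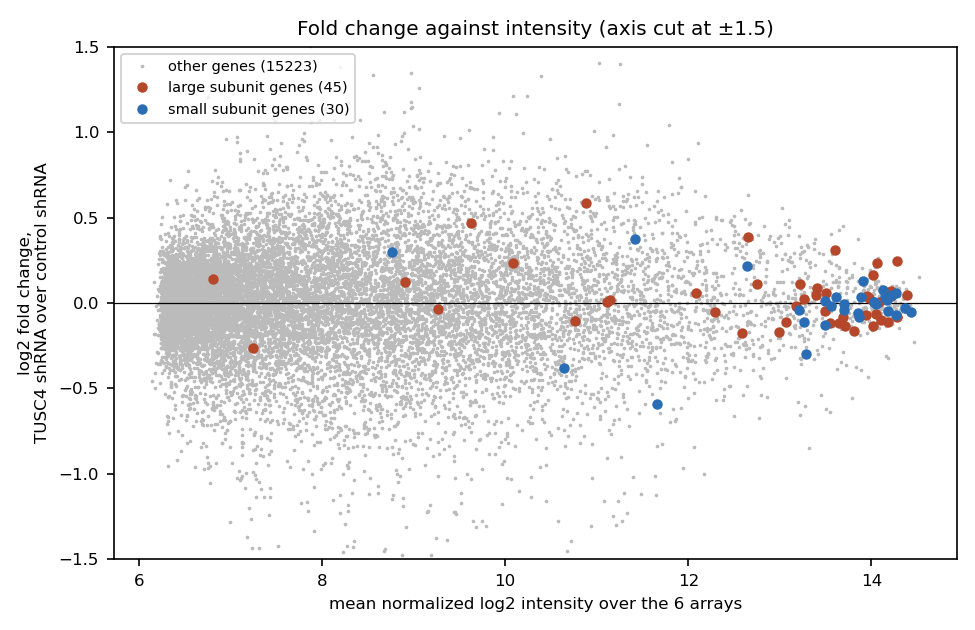
Log2 fold change (TUSC4 shRNA over control shRNA) against mean normalized log2 intensity over the 6 arrays, for large subunit genes, small subunit genes and all other genes tested, with the vertical axis limited to 1.5 either way. Most ribosomal protein genes crowd at the bright end near 0, and the called ones apart from RPL35, RPS15 and RPL13A lie to the left of that cluster.

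Several genes had probes that differed in call. A total of 35 members had more than 1 kept probe, and the range of log2 fold change within a gene had a median of 0.14, against 0.16 over 3571 genes on the array. Tested by probe, 12 of 124 member probes were higher and 5 lower, where 25% of all probes passed. In 8 genes a called probe stood beside an uncalled one, and in none did probes pass in opposite directions. For RPL8, part of the core of the large subunit, the brightest probe had a log2 fold change of 0.04 while the other had 0.73 (adjusted p over all probes = 0.000369). The signals of that RPL8 probe were 1258, 1431 and 1436 in knockdown cells and 1120, 1087 and 851 in control cells, with no overlap. RPL41, which encodes the shortest ribosomal protein, was at 0.05 by its brightest probe and at -0.49 by its other probe (adjusted p over all probes = 0.00422), with 237, 228 and 297 units in the knockdown samples against 419, 422 and 357 in the control samples. A dimmer probe was also called higher for RPS29 (0.39), RPL6 (0.39), RPL17 (0.35) and RPL36 (0.31), whose brightest probes did not pass. Over all 47 dimmer probes the median difference from the brightest probe of the gene was 0.07, with 29 above it. Ribosomal protein genes have many near-identical processed pseudogenes, so the transcript a probe reports cannot be told from these data.

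**Figure D4:**
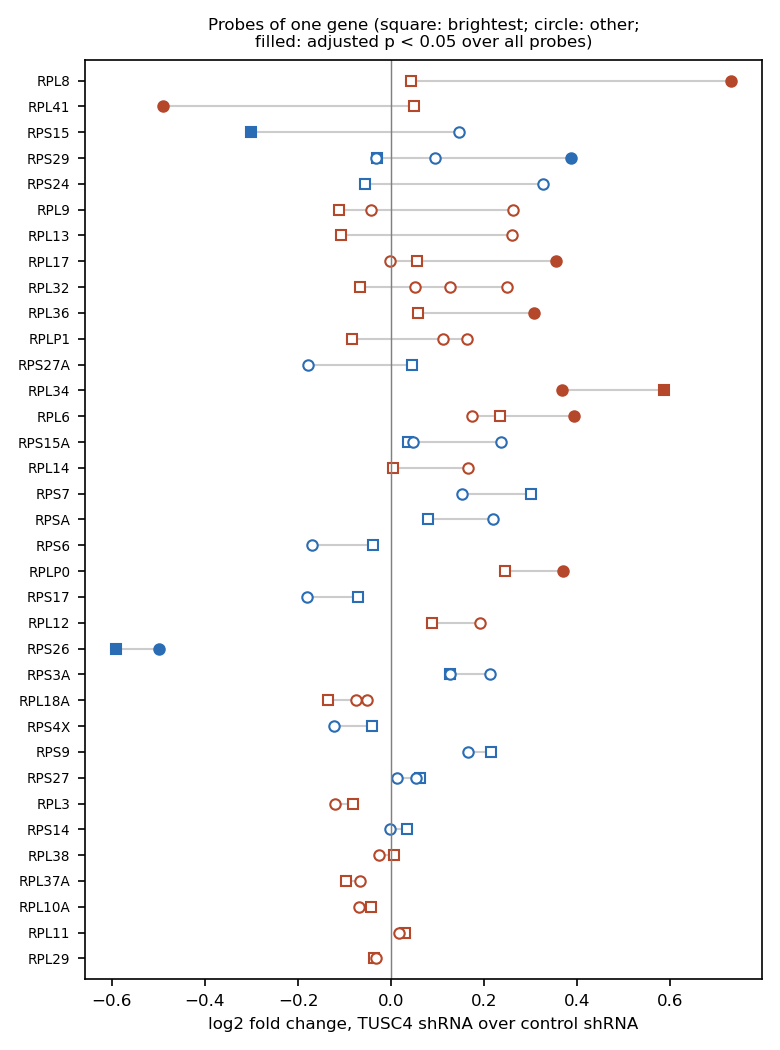
Log2 fold change (TUSC4 shRNA over control shRNA) of every kept probe of the 35 ribosomal protein genes with more than 1, ordered by range, with squares for the brightest probe, circles for the others and fill where the adjusted p over all probes was under 0.05. RPL8 and RPL41 have the widest ranges, and both probes of RPS26 and both of RPL34 are filled.

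Some members lay among neighbours that differed in the same direction. For each member the median log2 fold change of up to 50 nearest measured genes on its chromosome was taken, 50 for every member described. These medians ran from -0.29 to 0.20. RPS26 and RPL41 share 49 of their 50 neighbours on chromosome 12, which had a median of -0.29 for both genes and 23 genes lower against 2 higher around RPS26. RPS26 differed from that median by -0.31, the brightest probe of RPL41 was above it and the other RPL41 probe, at -0.49, was below it. RPL22, on chromosome 1, had a neighbour median of 0.20 with 19 of 50 neighbours higher and 1 lower, and stood 0.27 above it. RPL35 was 0.15 above a neighbour median of 0.16. Of the remaining called members RPL34 was 0.51 above its surroundings, RPS21 0.36 and RPL13A 0.29, while RPS23 and RPS15 differed from theirs by -0.41 and -0.23. RPL24 had a neighbour median of -0.18 and a value of its own of -0.16, which did not pass. Over the 77 members the value of a gene and of its surroundings had a Pearson correlation of 0.41 and a Spearman correlation of 0.37, a description across genes on the same arrays. How much of any change goes with its chromosomal surroundings was not tested.

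**Figure D5:**
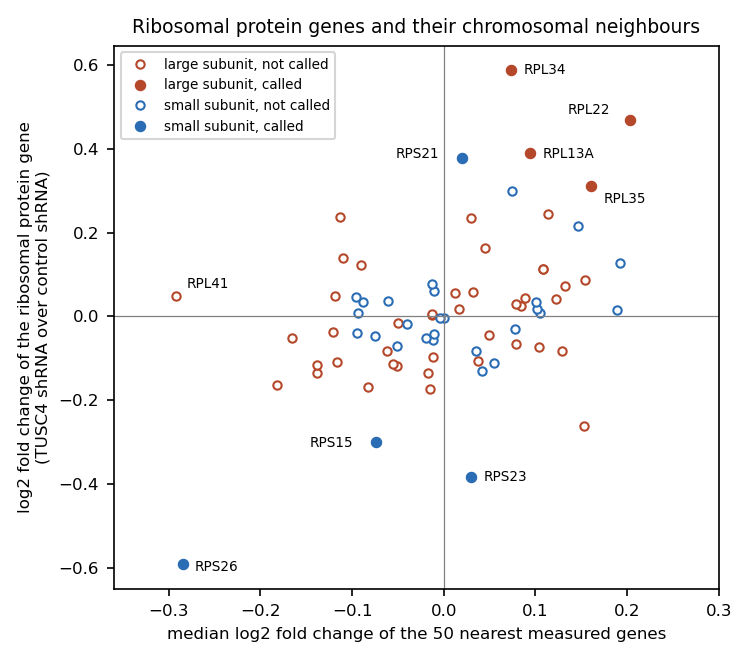
Log2 fold change (TUSC4 shRNA over control shRNA) of 75 ribosomal protein genes against the median of their 50 nearest measured genes, filled where the gene passed the test. RPS26 and RPL41 share a neighbourhood near -0.29, where RPL41 is drawn by its brightest probe at 0.05, and RPL22 lies at the right edge with a neighbour median of 0.20.

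Of the ribosome components outside the symbol rule, GNB2L1 (RACK1), a small subunit protein that also anchors signalling enzymes, had a log2 fold change of -0.13 ± 0.10 (adjusted p = 0.412) and FAU, which encodes a small subunit protein, -0.06 ± 0.10 (adjusted p = 0.740), and neither passed. Among paralogs named with an added L or L1, RPL10L, a retrogene copy of RPL10, rose by 0.46 ± 0.11 (adjusted p = 0.00703), with 10.55, 10.11 and 10.36 in knockdown cells against 9.96, 9.88 and 9.81 in control cells. All 3 knockdown samples were higher. RPL10L is close in sequence to RPL10, whose own probes stayed below background, so which copy the probe reports is uncertain, and its call was lost with median scaling (0.23). RPL7L1 (0.29), RPL36AL (-0.25), RPL26L1 (-0.16), RPL39L (-0.13) and RPS27L (-0.02) did not pass by their brightest probes. RPL3L and RPL22L1 were below background. The other probe of RPL7L1 went the opposite way and was called lower (-0.31, adjusted p over all probes = 0.0450).

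Other genes with TOP transcripts included called genes in both directions. Of 19 translation factors and related TOP genes 2 rose and 4 fell, 31.6% against the 27% of all genes, with a median of -0.08. The number lower was 2 with an offset of 16, without TUSC4 shRNA replicate 2 or without control shRNA replicate 3, and the number higher was 1 without TUSC4 shRNA replicate 1, control shRNA replicate 1 or control shRNA replicate 2. HNRNPA1, an RNA-binding splicing factor, rose by 0.62 ± 0.12 (adjusted p = 0.00115), and its other probe, at 0.29, did not pass. IMPDH2, the rate-limiting enzyme of guanine nucleotide synthesis, was at -0.41. NACA, part of the complex on nascent chains at the ribosome exit, was at -0.34 beside a neighbour median of -0.24. The other probe of NACA, at -0.27, did not pass. NAP1L1, a histone chaperone, was at -0.35, while its other 2 probes gave -0.03 and 0.02. The call of NAP1L1 was lost in 6 of 17 alternatives. Of 7 non-coding TOP transcripts that host small nucleolar RNAs or a related RNA 4 rose and none fell, 57.1% against the 13.3% of all genes that were higher, with a median of 0.43. SNHG8 had 11.17, 11.18 and 11.44 in the knockdown samples and 10.54, 10.54 and 10.39 in the control samples. Every knockdown sample of SNHG8 was higher, with a log2 fold change of 0.77 ± 0.10 (adjusted p = 6.49e-05), and its other probe gave 0.32 (adjusted p over all probes = 0.206). NCRNA00219 (EPB41L4A-AS1) rose by 0.68 ± 0.10 (adjusted p = 0.000105), SNHG5 by 0.45 ± 0.13 (adjusted p = 0.0146) and SNHG12 by 0.43 ± 0.15 (adjusted p = 0.0474), although the groups overlapped for SNHG12. The call of SNHG12 was lost in 11 of 17 alternatives and that of SNHG5 in 5. With median scaling 2 of the 7 were higher, none lower and the median was 0.22, and 2 were higher without TUSC4 shRNA replicate 3, control shRNA replicate 1 or control shRNA replicate 3.

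Genes that make ribosomes or control TOP and S6 signalling were called at shares near or below that of all genes. Of 51 ribosome biogenesis genes 5 rose and 5 fell, 19.6% against 27% of all genes, with a median of -0.0039. NOP56, a core protein of box C/D small nucleolar particles, rose by 0.83 ± 0.12 (adjusted p = 0.000109) beside a neighbour median of 0.31. TAF1C and TAF1D, subunits of the RNA polymerase I selectivity factor, rose by 0.54 and 0.62, and RIOK1, a kinase of small subunit maturation, by 0.48. The second probes of TAF1D, at 0.18, and of RIOK1, at 0.24, did not pass. With median scaling 1 gene of this list was higher and 7 were lower, and the number lower was between 1 and 3 when any array other than TUSC4 shRNA replicate 3 was left out, with 1 without TUSC4 shRNA replicate 2. Of 20 regulators 3 rose and 3 fell, or 30%. With median scaling 2 were higher and 5 lower, and 1 was lower without TUSC4 shRNA replicate 2, control shRNA replicate 1 or control shRNA replicate 3. MXD4, which pairs with MAX and opposes MYC, rose by 0.91 ± 0.12, PDCD4, a translation inhibitor degraded after S6 kinase phosphorylation, by 0.55 ± 0.10 (0.15 by its other probe, not called), and EIF4EBP1, which blocks the cap-binding protein until mTORC1 phosphorylates it, by 0.46 ± 0.10. The unnormalized signals of EIF4EBP1 overlapped, at 280, 271 and 352 in knockdown samples and 292, 262 and 254 in control samples. Its call was lost in 2 of 17 alternatives. EEF2K, the kinase that slows elongation, had -0.38 ± 0.10. RPS6KB1, which encodes S6 kinase 1 and was singled out after its value was seen, had -0.32 ± 0.11 (adjusted p = 0.0371), a call lost in 6 of 17 alternatives.

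Among 16 genes for chaperones and importers of ribosomal proteins 1 rose and 4 fell, 31.2% against 27% of all genes. The 4 that fell include NACA and NAP1L1, already counted among the TOP genes above, so the lists are not separate observations. BCCIP, a chaperone of RPL23, was at -0.50 ± 0.10 (adjusted p = 0.00135), with all 4 of its probes lower past the threshold, and IPO7, an importin, rose by 0.52 ± 0.16 (adjusted p = 0.0203) with overlapping groups and lost its call in 7 of 17 alternatives. With median scaling 8 of the 16 were lower and none higher, and 2 were lower and none higher without TUSC4 shRNA replicate 2, control shRNA replicate 1 or control shRNA replicate 3. In a list of 10 genes around the 5S particle and MDM2, 2 rose and none fell, 20% against 27% of all genes called. CDKN1A, an inhibitor of cell cycle kinases, rose by 0.62 ± 0.12 (adjusted p = 0.00110), and GLTSCR2 (NOP53), a nucleolar protein that binds the 5S particle, by 0.34 ± 0.10 (adjusted p = 0.0221), whereas RPL5, RPL11 and MDM2 were not called. The MDM2 probe lay near background, at a mean of 125 signal units in knockdown samples and 129 in control samples. It was above background on only 2 of 3 arrays in each group, so its value says little of the transcript. The call of GLTSCR2 was lost in 7 of 17 alternatives, among them median scaling and leaving out TUSC4 shRNA replicate 1, TUSC4 shRNA replicate 2, control shRNA replicate 1 or control shRNA replicate 2, each of which left 1 gene of the list higher. Of the 20 ribosomal protein genes mutated in Diamond-Blackfan anaemia RPL35 rose, RPS26 fell and 18 did not pass, a called share of 10% against 27% of all genes. The proteins of the mitochondrial ribosome, 76 genes chosen by symbol after the data were seen, had 4 higher and 19 lower. The called share was 30.3% against 27% of all genes, and the lower share 25% against 13.7%. Their median was -0.07, with a middle 50% range of -0.29 to 0.04. How these mitochondrial counts depend on the settings is not given here.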

How the data were processed

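Biotin-labelled RNA of 6 samples was hybridised to Illumina expression arrays. The deposited intensity values were average bead signals per probe, not normalized between arrays, from BeadStudio per the submitters' processing notes, whose version and settings the sources used here do not name. The authors' log2 values of the same arrays, with identical distributions in all columns and offset not given, served as an alternative. Signals were corrected with normexp (offset 50), quantile-normalized and put on a log2 scale. Detection was estimated per array from the mode of the log2 signal (bandwidth 0.05) and the spread below it, and probes at p under 0.05 on at least 3 of 6 arrays were kept. Between 20378 and 21485 probes per array were above background, and the number of arrays limits precision. Of the kept probes 881 had no symbol.

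Each gene was represented by its brightest kept probe. The test was limma's (3.58.1, in R 4.3.3), with lmFit and eBayes and no covariates, with Benjamini-Hochberg adjustment over 15300 genes, or over 19776 probes where stated, at a threshold of 0.05. Fold changes set TUSC4 shRNA over control and follow the offset, which shrinks those of dim probes, and intervals cover 95%. The fit was tested on simulated arrays, where it called most genes given a larger change but missed many given a smaller one. A gene that did not pass may therefore still differ. All arrays lay on 1 chip, each group in adjacent places, so position and group cannot be told apart. Neighbours and current symbols came from a RefSeq table (GRCh38.p14), which matched 12285 genes and all 77 members. No build is named for the array.

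Genes named are TUSC4, called members, the 5 largest changes each way, 8 members of known role, up to 4 called genes per list (2 if none), paralogs and members whose probes differ in call. The members and lists were chosen with earlier results of these data known. Alternatives changed background, offset, normalization, values, filter, probe rule, block and replicates. A few genes of these lists are counted but not reported here by name.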

Additional observations from a re-analysis of the deposited data

How the results depend on the processing

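The count of called ribosomal protein genes, 8 with the settings used, was within 1.5 times of that in 11 of 17 alternatives. It was 5 with an offset of 16, 4 with median scaling, 3 without normalization and 15 when any kept probe of a gene could carry the call, and ranged from 4 to 9 when an array was left out (5 without control shRNA replicate 1, 4 without control shRNA replicate 3). RPS26 was called lower in all 17 alternatives, RPL13A higher in 16, RPL34 and RPL22 in 15, RPS21 and RPS23 in 13, RPL35 in 10 and RPS15 in 7. RPS15 was at -0.08 with the mean of its probes. Without normalization the median was -0.053 for the large subunit and -0.045 for the small, with all genes at -0.16. Large minus small was 0.023, and -0.0082 both with median scaling and without normalization. Leaving out an array gave -0.0062 to 0.032, the lowest without TUSC4 shRNA replicate 3. Why these values moved was not tested, beyond the smaller number of arrays when an array is left out.

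The replicate numbers are shared by the groups, but same-numbered samples had correlations of residuals of 0.0986, 0.0534 and -0.105, so no pairing by number was seen. Whether same-numbered samples were handled together is not in the labels. With the number as a replicate block 8 members were called, the same 8 genes. TUSC4 was lower in all 17 alternatives.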
